A study of Mus musculus with 8 samples.

Results

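The step from day 4 to day 6 of Dox was examined in AML410, a mouse acute myeloid leukaemia with a monosomal karyotype and no p53 in which a short hairpin RNA lowers PU.1. The comparison uses 4 of the 8 libraries in the series, 2 from day 6 and 2 from day 4, chosen by their sample titles. All cells were GFP-positive bone marrow cells of leukaemic C57BL/6 recipients, p53-/- and shPU.1 in every group, so no group stands for normal marrow. The day 4 cells were sorted as GFPmid after 4 days of Dox given to the mice, and the day 6 cells as GFPlow after 6 days. The other 4 libraries, 2 of untreated GFPhigh cells and 2 of day 2 GFPhigh-mid cells, entered the same fit and lend it their estimate of the spread. Dox turns off the hairpin together with GFP, and PU.1 then returns. Time on Dox and the sort gate therefore moved together at this step, and their effects on a transcript cannot be told apart. The titles call the paired libraries technical replicates, whereas the design text of the series mentions duplicate mice. The p-values hence rest on the spread between these samples alone, and that spread may be technical. AML410 is 1 leukaemia, so other leukaemias are not represented.

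PU.1, the product of Spi1, is an ETS family transcription factor needed for the development of monocytes, neutrophils and B cells. Maturing neutrophils make their granules in waves. Proteases of the primary (azurophil) granules are made by promyelocytes, proteins of the secondary (specific) granules by myelocytes, and gelatinase and surface receptors later, while division stops. Monocytes share the primary granule stage but not the secondary granules.

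The targeted gene was examined first. Spi1 stood at 94.1 and 103 CPM (counts relative to library size, scaled by TMM, a normalization for library composition) in the 2 day 4 libraries, and at 217 and 229 CPM in the 2 day 6 libraries. The day 6 libraries were both above the day 4 libraries, and all 4 were above the means of 10.6 CPM in untreated and 15.2 CPM in day 2 cells. The log2 fold change of Spi1 was 1.18 (SE 0.11; edgeR quasi-likelihood test, Benjamini-Hochberg adjusted p = 4.68e-05), a 2.27-fold rise. Reads at Trp53, the gene for p53, were present in each library in spite of the p53-/- genotype, at 56.5 and 52.0 CPM on day 4 and 42.8 and 41.1 CPM on day 6. Its log2 fold change was -0.37 with an SE of 0.085 (edgeR adjusted p = 0.00726), and the call was lost without day 4 replicate 1 (edgeR adjusted p = 0.0743) or day 6 replicate 2 (edgeR adjusted p = 0.0879). Counts per gene do not show which part of the locus the Trp53 reads cover, and the source of these reads was not tested.

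Of 12330 genes tested, 1961 rose and 1728 fell between day 4 and day 6 at an adjusted p under 0.05 in the edgeR test. Genes called up thus made up 15.9% of all genes tested, genes called down 14.0%, and genes called in either direction 29.9%. Among them 425 rose and 368 fell by more than 2-fold, and 108 rose and 86 fell by more than 4-fold, whereas 2017 calls were of changes under 1.5-fold. The 50 most abundant genes took 15.2% and 15.8% of the counts on day 4 and 19.4% and 20.5% on day 6. The split of calls depends on how that is scaled. With libraries scaled by their total counts instead of TMM, 881 genes rose and 2646 fell, so that 24.98% of calls were rises against 53.2% with TMM, and the median log2 fold change of all genes moved from -0.02 to -0.20. Changes below are relative to the TMM scale, and lists whose direction turns on it are marked. The 4 libraries held 10174785 to 11213292 counts. Day 2 replicate 1 stood apart among the libraries that only lend their spread, with 28.3% of its counts in its 50 most abundant genes.

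**Figure D1:**
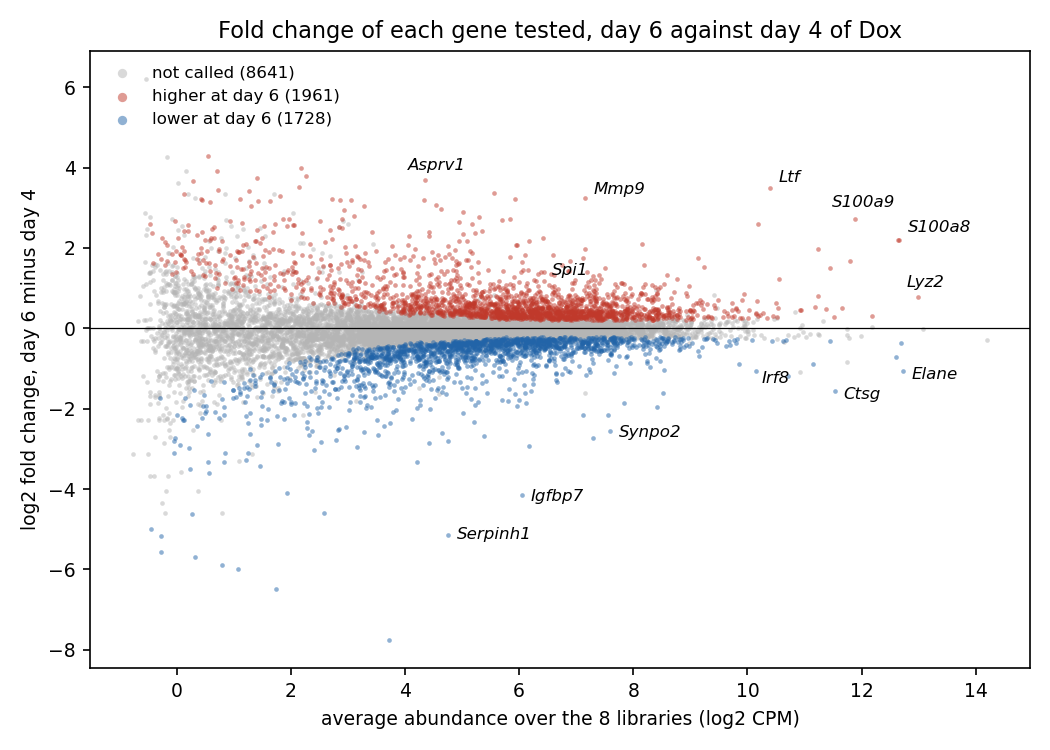
Each point is 1 of the 12330 genes tested, with its average abundance over the 8 libraries (log2 CPM) on the horizontal axis and its log2 fold change from day 4 to day 6 on the vertical axis. Red points rose (1961), blue points fell (1728) and grey points were not called (8641). Among abundant genes, granule and calprotectin genes such as Ltf, S100a8 and S100a9 lie above the zero line, and Elane, Ctsg and Irf8 lie below it.

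The 15 rising genes that lead the list by size of change were Asprv1, Ltf, Chil1, Mmp9, Plbd1, Fpr1, Itgb2l, Ly6g, Siglece, Cd33, Fpr2, Crispld2, S100a9, Slc2a3 and Retnlg. Most are known from neutrophils: granule contents (Ltf, Chil1, Mmp9), receptors for bacterial formyl peptides (Fpr1, Fpr2), the surface antigen Ly6g, and the sialic acid receptors Siglece and Cd33. Asprv1, an aspartic protease, led with 4.45 and 7.80 CPM on day 4 and 62.6 and 94.3 CPM on day 6, a log2 fold change of 3.69 with an SE of 0.24 (edgeR adjusted p = 6.96e-06). Cd33 moved from 9.35 and 12.6 CPM to 78.3 and 94.3 CPM, a log2 fold change of 2.98 with an SE of 0.15 (edgeR adjusted p = 4.30e-06). The glucose transporter gene Slc2a3 went from 21.6 and 34.4 CPM to 162 and 207 CPM. In these 3 genes the higher day 4 library was far below the lower day 6 library.

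Among transcription factors of the myeloid lineage, the list of 25 genes had 10 that rose (Id2, Spi1, Cebpe, Maf, Bcl6, Klf6, Klf2, Rara, Nfe2 and Cebpd) and 4 that fell (Irf8, Myb, Runx1 and Runx3). Its median log2 fold change of 0.18 compares with -0.02 over all genes, and the median was 0.00 with scaling by total counts, where 6 rose and 7 fell. Without day 6 replicate 1 the falls numbered 2. Cebpe, a factor required for secondary granule genes, had 122 and 156 CPM on day 4 and 268 and 328 CPM on day 6. The increase was 1.103 on the log2 scale with an SE of 0.16 (edgeR adjusted p = 4.58e-04), after means of 189 CPM in untreated and 191 CPM in day 2 cells. So Cebpe was lower at day 4 than at any other time by its group means, and highest at day 6. Irf8, which directs progenitors to monocytes and dendritic cells, went the other way, from 1323 and 1194 CPM on day 4 to 616 and 594 CPM on day 6 (-1.06 on the log2 scale, SE 0.12; adjusted p of edgeR = 1.12e-04). The untreated mean of Irf8 was 1428 CPM and the day 2 mean 1228 CPM, which are near the day 4 values. Myb, a factor of immature cells, fell from 225 and 198 CPM to 126 and 126 CPM. Id2, an inhibitor of basic helix-loop-helix factors, rose from 39.5 and 64.2 CPM to 159 and 167.3 CPM. Cebpa, Gfi1 and Klf4 were not called, and Cebpa had 230 and 226 CPM on day 4 against 204 and 194 CPM on day 6.

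Secondary and tertiary granule genes had the highest median of the 30 lists on the biology of these cells. Of 15 genes tested, 13 rose, Slpi fell and Hp was not called, and the median log2 fold change was 2.10. Ltf, encoding the iron-binding protein lactoferrin, had 336 and 525 CPM on day 4 and 4130 and 5588 CPM on day 6. That is a log2 fold change of 3.497 with an SE of 0.37 (edgeR adjusted p = 7.64e-05), from means of 36.4 CPM in untreated and 40.5 CPM in day 2 cells. Both day 6 libraries were thus far above both day 4 libraries, and these above the earlier groups. Mmp9, the gelatinase of tertiary granules, went from 39.2 and 66.8 CPM to 393 and 614 CPM (3.25 ± 0.35 as log2 fold change and SE, edgeR adjusted p = 8.16e-05). Chil1, a chitinase-like protein, went from 12.9 and 20.9 CPM to 149 and 199 CPM. Camp and Ngp started from a higher level. Camp, the cathelicidin gene, went from 2283 and 3386 CPM to 8211 and 9904 CPM, a log2 fold change of 1.68 with an SE of 0.27 (edgeR adjusted p = 8.92e-04). Ngp, the neutrophilic granule protein gene, went from 3268 and 4938 CPM to 17390 and 20400 CPM. Mmp8, the neutrophil collagenase gene, rose least of the 13, by 0.71 on the log2 scale with an SE of 0.083 (edgeR adjusted p = 1.31e-04). Hp, the haptoglobin gene, had 4257 and 4038 CPM on day 4 and 3567 and 3709 CPM on day 6. Slpi, which encodes an inhibitor of leukocyte elastase, fell from 6266 and 6207 CPM to 3693 and 3922 CPM (-0.71 on the log2 scale, SE 0.11; adjusted p of edgeR = 6.62e-04). The 15 genes together took 2.21% and 2.52% of all counts on day 4 and 5.01% and 5.74% on day 6.

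The primary granule list of 9 genes divided. Ctsg, Elane, Cst7 and Prtn3 fell, Prss57 rose, and Mpo, Ms4a3, Ctsc and Serpinb1a were not called, with a median log2 fold change of -0.20. Ctsg, the cathepsin G gene, went from 1720 and 1510 CPM on day 4 to 562 and 528 CPM on day 6 (-1.57 ± 0.10 as log2 fold change and SE, edgeR adjusted p = 6.96e-06). Elane, the neutrophil elastase gene, went from 5904 and 5728 CPM to 2829 and 2751 CPM (-1.06 on the log2 scale, SE 0.10; adjusted p of edgeR = 4.47e-05). For both, the libraries of a day lay close together and the days did not overlap. Prtn3, the proteinase 3 gene next to Elane, went from 2746 and 2649 CPM to 1495 and 1444 CPM. Mpo, the myeloperoxidase gene, had 214 and 193 CPM on day 4 and 169.1 and 185 CPM on day 6 (-0.20 ± 0.22 as log2 fold change and SE, edgeR adjusted p = 0.532). Prss57, which encodes the serine protease NSP4, went from 21.7 and 23.5 CPM to 36.1 and 39.8 CPM. These 5 calls held when any of the 8 libraries was left out.

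All 23 tested late neutrophil genes rose, with a median log2 fold change of 1.92. With scaling by total counts 22 rose. Leaving out day 4 replicate 1 gave 21 rises, day 6 replicate 1 gave 22 and day 6 replicate 2 gave 20. S100a8 and S100a9, which encode the subunits of calprotectin, took 0.472% and 0.694% of all counts on day 4 and 2.44% and 2.93% on day 6. S100a8 stood at 3307 and 4899 CPM on day 4 and at 17570 and 20280 CPM on day 6, a log2 fold change of 2.21 with an SE of 0.24 (edgeR adjusted p = 8.74e-05). Per length, S100a8 had the highest level of all genes at day 6, 48290 RPKM (CPM divided by gene length in kilobases), against the fourth highest at day 4, 10470 RPKM. Ly6g, the antigen of mature mouse neutrophils, went from 6.72 and 13.5 CPM to 69.5 and 97.8 CPM (3.06 on the log2 scale, SE 0.31; adjusted p of edgeR = 5.46e-05). Both day 4 libraries of Ly6g lay far below its day 6 libraries. Cxcr2, the chemokine receptor that draws neutrophils out of the marrow, went from 12.6 and 16.7 CPM to 77.5 and 107 CPM. Within days the list was not even. On day 4 as on day 6, 21 of the 23 genes were higher in replicate 2 than in replicate 1, with median differences of 0.44 and 0.28 on the log2 scale, both well under the difference between days. In the secondary and tertiary granule list, 12 of 15 genes on day 4 and 14 of 15 on day 6 were higher in replicate 2.

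**Figure D2:**
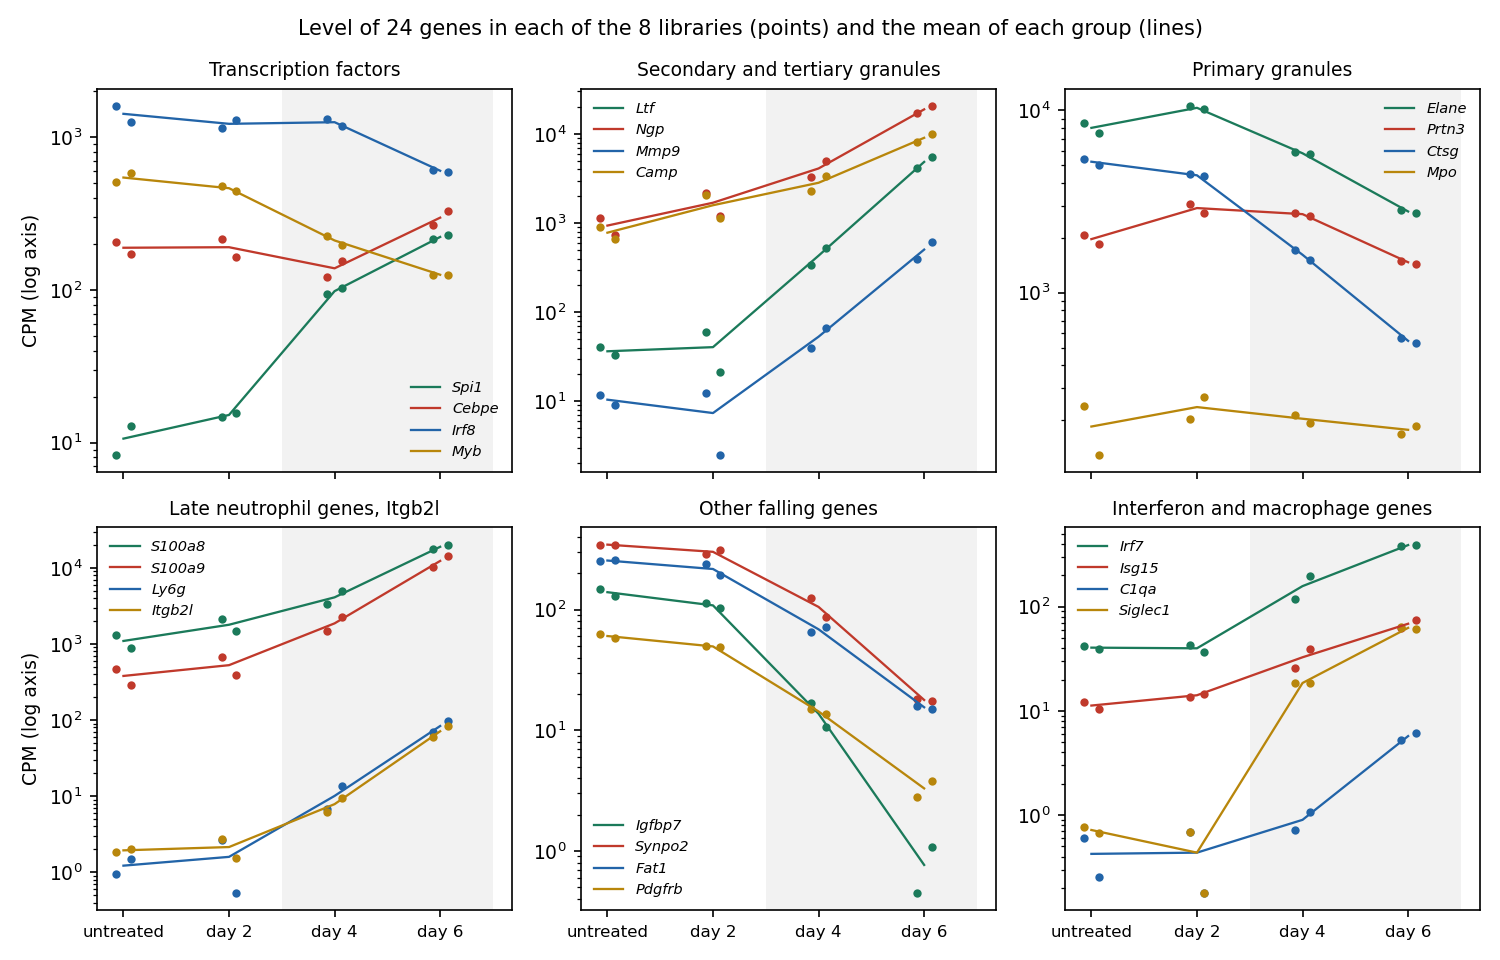
Level of selected genes (CPM, log axis) in each of the 8 libraries, as points, with lines through the mean of each group; the shaded columns are day 4 and day 6. Ltf, Mmp9, Ly6g and Itgb2l run at low levels in untreated and day 2 cells and climb at day 4 and again at day 6, whereas Elane and Ctsg fall over the same columns and Irf8 drops between day 4 and day 6.

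Promoter sequences were looked at for genes that moved in opposite directions. The letters GAGGAAGT, a purine-rich form of the sites that PU.1 is known to bind, were searched on both strands from 250 bases before to 50 bases after the annotated start in RefSeq promoters of GRCm38.p6. Promoters were found for 9555 of the 12330 genes, 12172 in all. The letters were present in 3.36% of these, in 5.30% of the promoters of genes called up and in 2.66% of those of genes called down. For changes over 2-fold the shares were 6.93% and 1.12%, which rest on 30 and 4 promoters. The promoters of 4 genes are shown because S100a8 and Itgb2l rose and Elane and Prtn3 fell while each holds these letters, given in capitals as GAGGAAGT or, on the other strand, ACTTCCTC. They are written 5′ to 3′ in the direction of transcription.
S100a8, chr3:90668821-90669120, plus strand: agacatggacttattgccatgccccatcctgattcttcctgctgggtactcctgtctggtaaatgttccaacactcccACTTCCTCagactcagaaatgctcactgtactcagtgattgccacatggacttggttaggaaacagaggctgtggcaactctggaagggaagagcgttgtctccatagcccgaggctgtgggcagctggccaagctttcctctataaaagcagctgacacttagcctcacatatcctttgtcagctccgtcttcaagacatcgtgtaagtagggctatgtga
Itgb2l, chr16:96443565-96443864, minus strand: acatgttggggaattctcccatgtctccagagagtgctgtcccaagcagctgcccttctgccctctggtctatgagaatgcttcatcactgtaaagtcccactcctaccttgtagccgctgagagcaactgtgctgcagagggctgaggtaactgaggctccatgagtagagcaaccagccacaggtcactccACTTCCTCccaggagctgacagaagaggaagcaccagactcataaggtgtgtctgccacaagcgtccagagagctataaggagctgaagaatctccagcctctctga
Elane, chr10:79886062-79886361, plus strand: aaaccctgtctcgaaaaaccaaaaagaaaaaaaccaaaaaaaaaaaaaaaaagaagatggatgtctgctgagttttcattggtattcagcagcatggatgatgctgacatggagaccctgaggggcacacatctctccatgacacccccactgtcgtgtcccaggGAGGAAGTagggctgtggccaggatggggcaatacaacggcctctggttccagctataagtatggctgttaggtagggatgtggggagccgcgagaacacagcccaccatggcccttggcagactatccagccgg
Prtn3, chr10:79879417-79879716, plus strand: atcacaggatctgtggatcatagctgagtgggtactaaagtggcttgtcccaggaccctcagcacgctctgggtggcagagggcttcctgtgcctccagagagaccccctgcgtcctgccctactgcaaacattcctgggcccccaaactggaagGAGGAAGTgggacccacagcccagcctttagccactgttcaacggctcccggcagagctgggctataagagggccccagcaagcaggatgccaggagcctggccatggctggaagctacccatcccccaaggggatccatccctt
The match begins 57 bases before the start in Itgb2l, 85 in Elane and 95 in Prtn3, and farther upstream in S100a8. Ly6g, Fcgr4 and C1qc, which rose, and Ly6c2 and Glp2r, which fell, also hold the letters in at least 1 promoter. These genes are examples, and other genes described here may hold the letters too. The palindrome TTGCGCAA, a C/EBP type site, was found in 0.304% of all promoters, 0.530% of those called up and 0.296% of those called down. Among genes changed over 2-fold, no promoter of a gene called up and 1 of a gene called down held it. The Sp type letters GGGCGG, common in promoters of broadly expressed genes, were present in 61.7% of all promoters in 40.6% of those of genes that rose and in 54.9% of those of genes that fell over 2-fold. For E2F type letters, TTTCGCGC or TTTGGCGC, the shares were 1.54% of all promoters, 0.867% of those called up and 1.83% of those called down, and for the E box CACGTG 9.98%, 8.67% and 12.5%. For changes over 2-fold the E2F type letters were in no promoter called up and in 2 called down, and the E box in 6.93% and 10.4%. A match is a run of letters, and binding was not measured here.

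Outside the primary granule list, genes that let a neutrophil or monocyte sense and kill microbes mostly rose. In the NADPH oxidase, the enzyme complex that makes superoxide, 6 of 7 genes rose and Rac1 was not called (median log2 fold change 0.63). With scaling by total counts 4 rose. Cybb, its membrane subunit gp91phox, went from 2782 and 2939 CPM to 4890 and 5128 CPM. Of 22 chemotaxis and homing genes, 15 rose and Pecam1 and Itgb1 fell, with a median of 0.76. Itgam, the alpha chain of the integrin CR3, went from 442 and 548 CPM to 1568 and 1785 CPM (1.76 ± 0.12 as log2 fold change and SE, edgeR adjusted p = 7.07e-06), and its partner Itgb2 from 1046 and 1160 CPM to 1905 and 2069 CPM. Cxcr4, which holds leukocytes in the marrow, had 491 and 476 CPM on day 4 and 433 and 441 CPM on day 6 and was not called. The 2 falls were not called without day 4 replicate 1 or day 6 replicate 2, and 1 was not without day 6 replicate 1. Among Fc and paired receptors 10 of 14 rose (median 0.69), led by Fcgr4, an activating receptor for immunoglobulin G, with 7.44 and 7.22 CPM on day 4 and 23.1 and 28.1 CPM on day 6. Tyrobp and Fcgr3 were not called, at 981 and 1056 CPM against 1223 and 1217 CPM for Tyrobp, the shared signalling chain DAP12.

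Among pattern recognition genes 12 of 21 rose and none was called down (median 0.47), 7 without day 4 replicate 1 and 7 with scaling by total counts. Tlr8, an endosomal receptor for RNA, went from 16.2 and 18.9 CPM to 48.9 and 42.0 CPM, and Tlr2, a receptor for bacterial lipoproteins, from 97.7 and 83.1 CPM to 176 and 176 CPM. Tlr4, Tlr5 and Myd88 were among those not called. Of 19 myeloid kinases and phosphatases 15 rose (median 0.40), but 6 with scaling by total counts. Fgr, a SRC family kinase, went from 18.1 and 23.4 CPM to 98.4 and 113 CPM (2.35 on the log2 scale, SE 0.15; adjusted p of edgeR = 6.96e-06). Pik3r5, a regulatory subunit of PI3K gamma, went from 29.0 and 31.0 CPM to 69.1 and 64.3 CPM. Leukocyte cytoskeleton genes moved less, with 17 of 22 called up at a median of 0.34, 2 with scaling by total counts, and 7, 10 and 9 without day 4 replicate 1, day 6 replicate 1 and day 6 replicate 2.

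Mediators of inflammation also rose. Of 19 genes 13 were called up and none down (median 0.69), 8 without day 6 replicate 2. Il1rn, the antagonist of the interleukin 1 receptor, went from 24.6 and 28.3 CPM to 69.0 and 92.7 CPM, and Il1b from 1.27 and 1.37 CPM to 4.17 and 4.65 CPM. Alox5, the leukotriene-forming lipoxygenase, went from 122 and 138 CPM to 234 and 278 CPM. Of 16 immediate early genes, 10 rose (median 0.50), 5 without day 6 replicate 2 and 6 with scaling by total counts, among them Atf3 from 7.63 and 6.34 CPM to 21.4 and 21.2 CPM and Nr4a1 from 24.96 and 30.5 CPM to 72.1 and 79.2 CPM.

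Interferon response genes rose nearly throughout: 23 of 27 were called up and none down, with a median log2 fold change of 1.07. The number was 19 without day 4 replicate 1, day 6 replicate 1 or day 6 replicate 2. Ifit3, an antiviral RNA-binding protein, had 17.5 and 30.7 CPM on day 4 and 92.3 and 93.5 CPM on day 6 (1.95 ± 0.19 as log2 fold change and SE, edgeR adjusted p = 4.39e-05). Irf7, the factor that amplifies type I interferon, went from 117 and 198 CPM to 386 and 395 CPM (1.31 on the log2 scale, SE 0.18; adjusted p of edgeR = 3.30e-04). The day 4 libraries differed among themselves here, since 27 of 27 genes were higher in replicate 2 by a median of 0.53 on the log2 scale, against 0.06 on day 6. Stat2 and Ddx58 were among the genes called up, and Mx1, Mx2, Bst2 and Cxcl10 were not called.

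Monocyte and macrophage genes split by their starting level. Of 22 tested, 9 rose, Cd163 and Ly6c2 fell and 11 were not called (median 0.37). Several abundant monocyte genes were not called. Csf1r, which encodes the M-CSF receptor, had 917 and 920 CPM on day 4 and 1008 and 950 CPM on day 6 (0.09 ± 0.14 as log2 fold change and SE, edgeR adjusted p = 0.655). Ccr2 had 1075 and 1197 CPM on day 4 and 1283 and 1174 CPM on day 6, and Cd68, Lgmn and F13a1 were likewise not called. Ly6c2, a marker of classical monocytes, fell from 8272 and 8775 CPM to 6699 and 6485 CPM, a call that was lost when any 1 of these 4 libraries was left out (edgeR adjusted p from 0.063 to 0.158). Ly6c2 has a close paralogue in Ly6c1, and reads shared by copies were counted in a way that is not given in the sources used here.

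The macrophage genes that rose most came from near the limit of detection. C1qc, a subunit of complement C1q, had 0.817 and 0.683 CPM on day 4 and 7.66 and 6.59 CPM on day 6 (3.223 on the log2 scale, SE 0.36; adjusted p of edgeR = 1.12e-04), and C1qa had 0.726 and 1.07 CPM against 5.29 and 6.16 CPM. Treml4, Mrc1, Msr1 and Apoe rose from means of at most 6.07 CPM. Outside the list, Siglec1, a sialoadhesin of marrow macrophages, went from 18.6 and 18.4 CPM to 63.8 and 61.4 CPM. Slc40a1, the iron exporter ferroportin, went from 14.6 and 15.99 CPM to 36.9 and 40.7 CPM. These 2 genes were chosen after their values were seen. In each of these genes with values given here the days did not overlap. The summed level of the 23 deposited monocyte and macrophage genes was 15580 and 16600 CPM on day 4 and 15930 and 15270 CPM on day 6, so the sum overlapped between days.

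Genes of antigen presentation on MHC class II were next. H2-Aa had 3.54 and 2.63 CPM on day 4 and 11.9 and 14.8 CPM on day 6, H2-Ab1 2.18 and 2.05 CPM against 7.66 and 14.2 CPM, and Cd74, the invariant chain, 132 and 129 CPM against 242 and 248 CPM. Of 8 tested, 5 rose (median 0.85), 2 in DESeq2 and 3 without day 4 replicate 1, day 4 replicate 2 or day 6 replicate 2. H2-DMa and H2-DMb1, which load peptide, were not called. MHC class I genes gave 4 rises of 14 and a median of 0.12, and no rise and a median of -0.06 with scaling by total counts. The number was 0 without day 4 replicate 1.

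**Figure D3:**
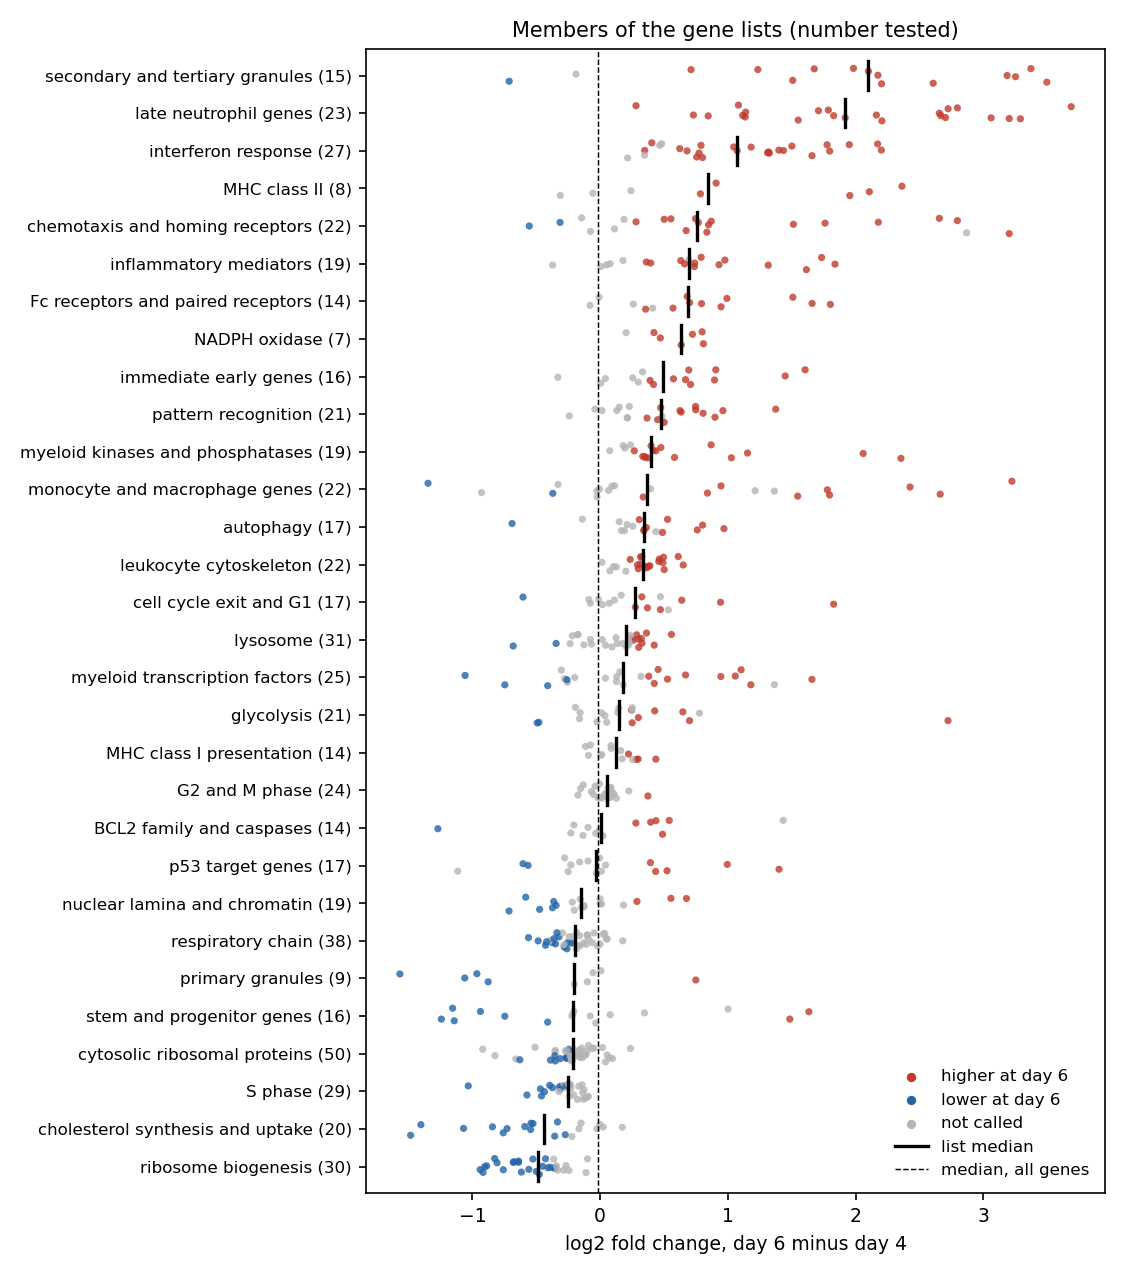
Log2 fold change from day 4 to day 6 of each tested member of the 30 gene lists on the biology of these cells, 1 point per gene, coloured by its call, with the median of each list (thick line) and of all genes (dashed line, -0.02). Secondary and tertiary granule genes (median 2.10) and late neutrophil genes (median 1.92) lie farthest to the right, and ribosome biogenesis (median -0.49) and cholesterol genes (median -0.44) farthest to the left.

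Proliferation genes were divided by phase. Of 29 S phase genes 12 fell and none rose, with a median log2 fold change of -0.25. The falls were small: Mcm2, a subunit of the replicative helicase, went from 284 and 251 CPM to 195 and 192 CPM (-0.47 ± 0.079 as log2 fold change and SE, edgeR adjusted p = 0.00129). Ung, a uracil glycosylase, had the steepest, from 26.4 and 18.6 CPM to 11.2 and 10.9 CPM. Without day 4 replicate 1 the count was 3, and without day 6 replicate 1 or day 6 replicate 2 it was 4. With scaling by total counts 19 fell, at a median of -0.43. Of 24 G2 and M phase genes, 1 was called. Mki67, the proliferation antigen, had 492 and 511 CPM on day 4 and 529 and 542 CPM on day 6 (0.09 on the log2 scale, SE 0.22; adjusted p of edgeR = 0.786), and Top2a had 670 and 636 CPM against 664 and 693 CPM. Cenpf, the 1 gene called, rose with a log2 fold change of 0.37, a call lost without day 4 replicate 1, day 6 replicate 1 or day 6 replicate 2 and with scaling by total counts. The median of the list was 0.05, and -0.13 with scaling by total counts.

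Of 17 genes tied to leaving the cell cycle or to G1, 7 rose and Cdkn1a fell (median 0.28). The number rising was 4 without day 4 replicate 1, day 6 replicate 1 or day 6 replicate 2, and 3 with scaling by total counts. Mxd1, which opposes MYC, went from 57.3 and 78.1 CPM to 216 and 264 CPM (1.83 ± 0.15 as log2 fold change and SE, edgeR adjusted p = 1.93e-05). Btg2, an antiproliferative gene, went from 54.2 and 60.6 CPM to 105 and 115 CPM. Cdkn1a, which encodes the inhibitor p21 and is a p53 target, went from 135 and 110 CPM to 80.3 and 80.8 CPM. In the list of 17 p53 target genes 5 rose and 2 fell (median -0.03). With scaling by total counts the split turned to 2 rises and 4 falls (median -0.21), and there were 2 rises without day 4 replicate 1, day 6 replicate 1 or day 6 replicate 2. Trp53inp1 led the rises, from 45.3 and 59.0 CPM to 136 and 140 CPM.

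Stem and progenitor genes gave 6 falls (Angpt1, Cd93, Myc, Cdk6, Myb and Runx1) and 2 rises (Erg and Adgrg1) among 16 tested, and a median of -0.21. Cdk6, a kinase that drives G1 in progenitors, went from 52.4 and 47.4 CPM to 29.5 and 22.7 CPM. Myc had 120 and 64.4 CPM on day 4 and 43.7 and 40.2 CPM on day 6; its fall (-1.14 on the log2 scale, SE 0.33; adjusted p of edgeR = 0.0241) was not called without day 4 replicate 1, the higher library, nor without day 6 replicate 1 or day 6 replicate 2. Kit, the stem cell factor receptor, was not called, at 40.1 and 45.3 CPM on day 4 and 34.9 and 38.3 CPM on day 6. Adgrg1, an adhesion receptor of stem cells, had a mean of 41.7 CPM in untreated cells, 3.27 and 2.24 CPM on day 4, and 7.54 and 7.997 CPM on day 6. Erg rose from 0.635 and 1.46 CPM to 3.04 and 3.46 CPM, a call lost without day 4 replicate 1, day 6 replicate 1 or day 6 replicate 2.

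Most genes of ribosome assembly fell by small amounts. Of 30 ribosome biogenesis genes 22 fell and none rose, with a median log2 fold change of -0.49. Dkc1, the pseudouridine synthase dyskerin, went from 84.0 and 64.6 CPM to 39.1 and 39.7 CPM (-0.92 ± 0.12 as log2 fold change and SE, edgeR adjusted p = 2.40e-04). Ncl, the nucleolin gene, went from 674 and 649 CPM to 522 and 508 CPM. The falls numbered 11, 13 and 12 without day 4 replicate 1, day 6 replicate 1 and day 6 replicate 2. Of 50 cytosolic ribosomal protein genes 10 fell and none rose (median -0.21), led by Rps2 from 154 and 141 CPM to 95.2 and 95.6 CPM. Most of these genes, 40 of 50, were not called. The number of falls was 20 without either untreated library and 21 with scaling by total counts, where the median was -0.40. Leaving out day 4 replicate 1 gave 3, day 4 replicate 2 gave 4, day 6 replicate 1 gave 2 and day 6 replicate 2 gave 1. Respiratory chain genes had 13 falls of 38 and no rise (median -0.20), 8 falls in DESeq2, and 3, 7, 2 and 2 falls without the same libraries.

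Cholesterol synthesis and uptake showed the second lowest median among the 30 lists, -0.44, with 13 falls and no rise among 20 genes. Sqle, the squalene epoxidase gene, went from 31.1 and 21.7 CPM to 9.35 and 10.6 CPM (-1.40 on the log2 scale, SE 0.19; adjusted p of edgeR = 3.69e-04). Cyp51, the sterol demethylase gene, went from 45.0 and 34.2 CPM to 24.7 and 23.2 CPM. The day 4 libraries were uneven, since 2 of the 20 genes were higher in replicate 2 than in replicate 1. The falls numbered 4, 4 and 6 without day 4 replicate 1, day 6 replicate 1 and day 6 replicate 2, and 14 without day 4 replicate 2.

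Glycolysis genes were mixed, with 7 rises and 2 falls (Pfkl and Pfkm) among 21 and a median of 0.15, or -0.04 with scaling by total counts, where 3 rose and 3 fell. Apart from Slc2a3, given above, the rises were small: Pfkfb4, a regulator of phosphofructokinase, went from 54.6 and 64.4 CPM to 93.9 and 99.1 CPM. Slc2a1, the other main glucose transporter gene, had 24.6 and 22.04 CPM on day 4 and 23.0 and 25.4 CPM on day 6. The rises numbered 4 without any 1 of the 4 day 4 and day 6 libraries. Lysosome genes had 10 rises and 2 falls among 31 (median 0.21), no rise and 4 falls with scaling by total counts, and 1 to 3 rises without any 1 of the 4 libraries. Autophagy genes had 9 rises and 1 fall (Gabarapl1) among 17 (median 0.34), 5 rises without day 4 replicate 1 or day 6 replicate 2 and 4 with scaling by total counts. Optn, an autophagy receptor, went from 11.9 and 12.9 CPM to 26.01 and 22.5 CPM.

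Of 14 BCL2 family and caspase genes, 5 rose and Bcl2 fell, and the median was 0.01, or -0.17 with scaling by total counts, where none rose and 3 fell. Bcl2, an inhibitor of apoptosis, went from 37.7 and 29.4 CPM to 14.9 and 12.97 CPM (-1.27 ± 0.15 as log2 fold change and SE, edgeR adjusted p = 1.31e-04). Mcl1, the related gene on which neutrophils depend, went from 344 and 336 CPM to 477 and 477 CPM, a rise not called with scaling by total counts (edgeR adjusted p = 0.0975). The rises numbered 3 without day 4 replicate 1 or day 6 replicate 1. Among nuclear lamina and chromatin genes 3 of 19 rose (Sun2, Hmgn2 and Lbr) and 6 fell (Dnmt3b, Lmna, Hdac2, Hells, Lmnb2 and Ezh2), with a median of -0.15. The rises were near the share over all genes tested, 15.9%, and the falls above theirs, 14.0%. With scaling by total counts 2 rose and 7 fell. Lbr, the lamin B receptor whose loss prevents normal neutrophil nuclear shape, was among the rises while Lmna, the lamin A gene, went from 68.3 and 57.2 CPM to 41.2 and 42.6 CPM. The falls numbered 2, 3 and 2 without day 4 replicate 1, day 6 replicate 1 and day 6 replicate 2.

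The 15 falling genes with the largest changes included Serpinh1, Igfbp7, Nwd1, Tpm2, Heph, Pi15, Cp, Slc6a18, Chl1, Adamts9, Synpo2, Lipn, Glp2r and Cyp2j6. Few of them are known as blood cell genes. They include a collagen chaperone (Serpinh1), muscle proteins (Tpm2, Synpo2), copper oxidases of iron transport (Heph, Cp) and a matrix protease (Adamts9). All 15 had higher group means in untreated and in day 2 cells than on day 4. Synpo2, an actin-binding protein of muscle, had means of 345 CPM in untreated and 301 CPM in day 2 cells, then 124 and 86.6 CPM on day 4 and 18.0 and 17.6 CPM on day 6 (-2.56 on the log2 scale, SE 0.16; adjusted p of edgeR = 6.55e-06). Igfbp7, a secreted binding protein, had means of 139 and 108 CPM in untreated and day 2 cells, then 16.8 and 10.6 CPM on day 4 and 0.450 and 1.08 CPM on day 6. Serpinh1 had 92 counts over both day 4 libraries and 2 over both day 6 libraries, a ratio of 39.2 with a 95% exact counting interval of 10.6 to 329, which covers counting error only. Tpm2 had 20 counts against 2, a ratio of 8.53 with an interval of 2.07 to 75.2, and its call was lost without day 4 replicate 2, day 6 replicate 1 or day 6 replicate 2. The call of Glp2r was lost without day 6 replicate 2 (edgeR adjusted p = 0.0573). Further down the same course were Fat1, an atypical cadherin, from 65.6 and 71.6 CPM to 15.99 and 15.02 CPM, and Pdgfrb, a growth factor receptor of mesenchymal cells, from 15.1 and 13.6 CPM to 2.82 and 3.78 CPM. Fat1 was chosen after its values were seen.

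By gain in CPM, 6 genes dominated: S100a8, Ngp, S100a9, Lyz2, Camp and Chil3. They took 2.29% and 2.77% of the counts on day 4 and 6.93% and 7.84% on day 6. Lyz2, the lysozyme gene of neutrophils and macrophages, went from 10830 and 11340 CPM to 18620 and 19490 CPM. The 6 largest losses were Elane, Slpi, Ly6c2, Prtn3, Ctsg and Irf8, together 2.58% and 2.53% of the counts on day 4 and 1.39% and 1.33% on day 6.

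The gate moved from GFPmid to GFPlow at this step, so markers of cells other than the leukaemia were followed in each library. Less RNA per cell and fewer cells of a type cannot be told apart in these bulk samples. Erythroid genes differed most. Of 11 markers 6 were deposited, 5 rose (Alas2, Hbb-bs, Slc4a1, Hba-a2 and Hba-a1), Klf1 was not called, and the median log2 fold change was 3.57. Their summed level was 3.45 and 6.63 CPM on day 4 and 40.8 and 64.5 CPM on day 6, against 6.62 and 14.5 CPM in the untreated libraries. The beta globin gene Hbb-bs had 0.272 and 1.56 CPM on day 4 and 10.8 and 17.9 CPM on day 6 (3.98 ± 0.71 as log2 fold change and SE, edgeR adjusted p = 0.00174), and Slc4a1, the red cell anion exchanger, 0.363 and 0.293 CPM against 6.19 and 4.11 CPM. The alpha globin genes Hba-a1 and Hba-a2 are near-identical, so the division of reads between them is uncertain. Even at day 6 the erythroid sum was under the level of the single gene Spi1.

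B cell markers, all 14 of them deposited, had a median log2 fold change of 1.87, yet 2 were called up (Rag1 and Igll1). That count was 9 with scaling by total counts and 10 when either day 2 library was left out of the fit, and was 1, 0, 0 and 0 without day 4 replicate 1, day 4 replicate 2, day 6 replicate 1 and day 6 replicate 2. Rag1, the recombinase of lymphoid precursors, had 0.635 and 0.878 CPM on day 4 and 5.63 and 7.997 CPM on day 6. The summed level was 646 and 744 CPM on day 4 and 590 and 596 CPM on day 6 because a single gene, Ighm, made up most of it, with 614 and 707 CPM against 516 and 509 CPM. Cd79a, a chain of the B cell receptor, had 1.18 and 2.34 CPM on day 4 and 4.50 and 7.67 CPM on day 6 and was not called. Its untreated libraries had 11.2 and 4.78 CPM. Igll1 had 21.0 and 14.2 CPM in the untreated libraries, 2.18 and 1.07 CPM on day 4 and 6.08 and 5.94 CPM on day 6. Rag1 went the other way, with 1.28 and 0.503 CPM in the untreated libraries.

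The other lists had at most 4 rises and 1 fall. Their sums, given next, came mostly from 1 gene each, in order Nkg7, Hdc, Gp1bb, Tcf4 and Pdgfrb. Of 15 T and NK cell markers 8 were deposited, and Thy1 fell while none rose, with sums of 136 and 147 CPM on day 4 and 119 and 107 CPM on day 6. Mast cell, basophil and eosinophil markers, 9 of 12 deposited, gave 4 rises and 1 fall (Mcpt8), with sums of 129 and 132 CPM against 157 and 173 CPM, and 1 rise without day 4 replicate 1 or day 6 replicate 2. Megakaryocyte markers, 4 of 8 deposited, had no call and sums of 36.2 and 45.4 CPM against 47.1 and 46.8 CPM. Dendritic cell markers, 8 of 11 deposited and 7 tested, had 1 rise (Siglech), 1 fall (Tcf4) and a median log2 fold change of 1.74. Their sums were 83.2 and 84.6 CPM on day 4 against 76.2 and 71.2 CPM on day 6. Tcf4 alone made up 55.7 and 56.8 CPM on day 4 and 41.1 and 44.7 CPM on day 6. The Siglech call was lost in DESeq2 (adjusted p = 0.112) and without any 1 of the 4 day 4 and day 6 libraries, and the fall was not called without day 4 replicate 1. Rises in this list numbered 3 without either day 2 library and with scaling by total counts. Stroma and endothelium markers, 4 of 12 deposited, went from 17.1 and 15.99 CPM to 4.84 and 6.05 CPM, of which Pdgfrb made up 15.1 and 13.6 CPM on day 4 and 2.82 and 3.78 CPM on day 6. Defining markers that are not among the deposited genes, such as Cd3e, Pf4 and Col1a1, were not analysed here.

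**Figure D4:**
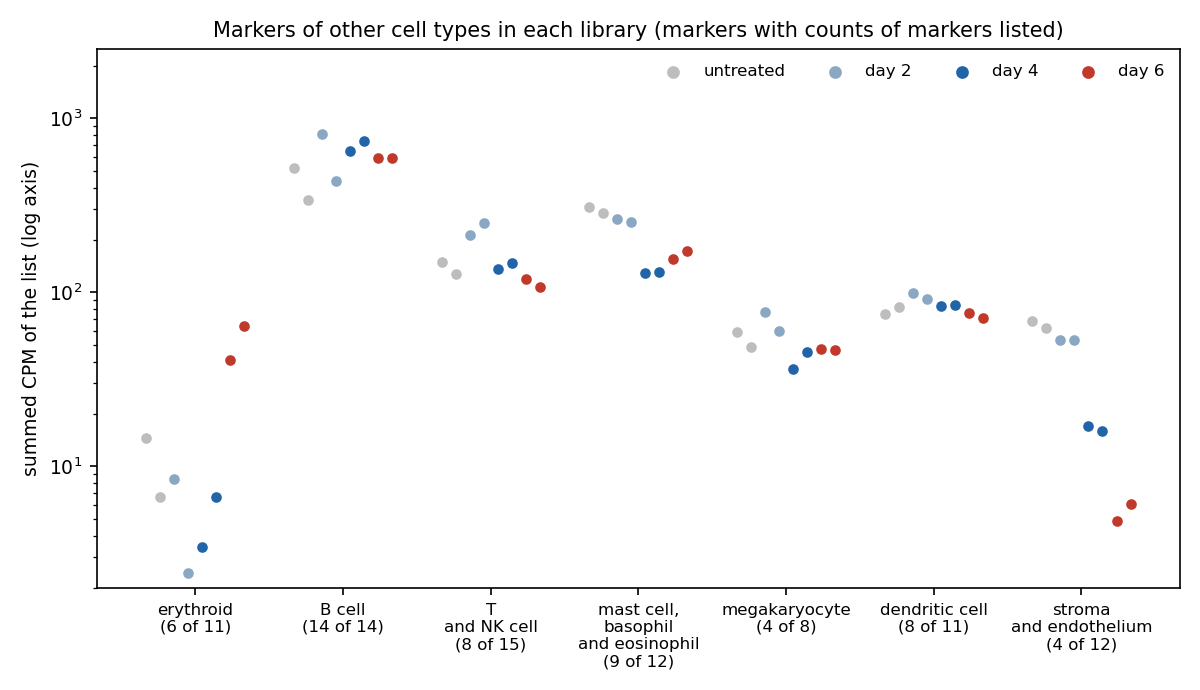
Summed level of markers of other cell types (CPM, log axis) in each of the 8 libraries, with 1 point per library, coloured by group; the numbers under each name are the markers deposited and listed. The erythroid sum was 40.8 and 64.5 CPM in the day 6 libraries against at most 14.5 CPM elsewhere, while the day 4 and day 6 sums of B cell, T and NK cell, megakaryocyte, dendritic cell and mast cell lists were within 1.5-fold of each other. Those sums came mostly from 1 gene each, in the same order Ighm, Nkg7, Gp1bb, Tcf4 and Hdc. The median log2 fold changes of the tested members of these lists were 1.87, -0.29, 0.63, 1.74 and 0.22.

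Several of these rises were between low levels. Erythroid, lymphoid precursor, C1q and MHC class II transcripts rose from a few CPM or less, and apart from Cd74 none of those given here exceeded 25.8 CPM in a day 6 library. Of the lymphoid genes that rose, Igll1 was higher in the untreated GFPhigh libraries than on day 6, and Rag1 was lower there. The part of other cells in the GFPlow gate in these rises was not tested. Ltf, Ngp, Camp, S100a8, S100a9 and Itgam rose from higher levels, and the part of other cells in their rises was likewise not tested. For these genes, as for the primary granule, ribosome biogenesis, cholesterol and S phase genes that fell, 2 further days of Dox and the lower GFP gate cannot be told apart. GFP and the hairpin were not analysed here.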

How the data were processed

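RNA of sorted GFP-positive AML410 cells was sequenced. Per the file headers, the deposited values are a whole-number count, not normalized, and a length for every Entrez gene ID. Per the submitters' processing notes, the build was mm10 and the tools were limma 3.22.0, edgeR 3.8.2, featureCounts and CASAVA 1.8.2. For the aligner and strandedness nothing is given in the sources used here, so a gene and its antisense partner cannot be told apart. Symbols came from RefSeq GRCm38.p6 (12555 of 12830 IDs; the others hold 2.24% of the counts).

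All 8 libraries entered 1 group means fit (R 4.3.3, edgeR 4.0.16): filterByExpr, which removed 500 genes with 0.0267% of the counts, TMM, glmQLFit, and glmQLFTest of day 6 minus day 4. P-values were adjusted by Benjamini-Hochberg over 12330 genes and called under 0.05. The fit had 4 residual degrees of freedom and a biological coefficient of variation of 8.34%. RPKM was computed from CPM and the deposited gene length. The script was tested on simulated data. DESeq2 1.42.0 and other settings were alternatives. Replicates of day 4 and of day 6 differed by more than sampling noise (median chi-square over genes 1.12 and 0.701 against 0.455), so none was treated as a copy.

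The members and the 38 gene lists (666 of 719 genes deposited) were chosen with earlier results of these data known. Named genes are Spi1, Trp53, the 15 rises and 15 falls with the largest fold change (called, average logCPM of at least 3, groups not overlapping, no predicted genes), the 6 largest gains and losses in CPM, and up to 3 called members per list (1 for other cell types), with abundant members that were not called. Further members, which show differences within a list, were picked once their values were known. One gene that the rule names is not reported here.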

Additional observations from a re-analysis of the deposited data

How the results depend on the processing

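With scaling by total counts 881 genes rose and 2646 fell, against 1961 and 1728 with TMM. Against a minimum change of 1.5-fold 342 rose and 212 fell, and in DESeq2, with 12083 genes given an adjusted p, 1617 rose and 1089 fell. Leaving out 1 library gave 1006 to 2222 rises and 710 to 1971 falls, the fewest rises without day 4 replicate 1 (1006 rises and 725 falls) and the fewest falls without day 6 replicate 2 (1016 and 710). Without day 6 replicate 1 there were 1254 rises and 878 falls. In these fits the lone library is assumed to vary like the other groups; the cause of the loss was not tested. RLE size factors, no filter on low counts and a fit of the 4 libraries alone gave 2116, 1950 and 2423 rises and 1606, 1726 and 2131 falls. No gene called in both a given setting and the TMM fit changed direction in any of the 15 settings.

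Same-numbered libraries of day 4 and day 6 deviated from their group means with a correlation of 0.062 over 2 pairs. With 2 libraries per group this cannot settle whether the numbers mark pairs. Among late neutrophil genes, 21 of 23 were higher in replicate 2 on day 4 and also on day 6. With a replicate block 1873 genes rose and 1620 fell. Counting depth limits genes with few reads, and 2 libraries per group leave the spread to be borrowed from other genes. Deposited genes had passed the submitters' own selection, and a gene outside it was not analysed here.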

Other observations

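Gene families taken by the start of their symbols, a choice made after the values were seen, add groups that the lists do not hold. Of 12 tested Cd300 and Siglec receptors, which recognise lipids and sialic acid on other cells, 9 rose and none fell, with a median log2 fold change of 0.93 against -0.02 over all genes. Of 11 Ms4a membrane proteins 6 rose and none fell (median 1.21), and of 8 Schlafen (Slfn) genes, induced in leukocyte activation, 6 rose and none fell (median 0.93). These families hold near-identical neighbours, so the division of reads among members is uncertain. Of 20 C-type lectins (Clec) 10 rose, among them Clec4d and Clec4e, and 2 fell (median 0.59). Rab GTPases, which route vesicles, had 18 rises and 2 falls among 55 (median 0.17, and -0.01 with scaling by total counts). Stefins and cystatins, inhibitors of cysteine proteases, had 6 rises and 1 fall (Cst7) among 15.

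Families that serve protein synthesis had more falls than rises. Over all genes tested, 15.9% were called up and 14.0% called down. Of 53 Eif translation factor genes 6 fell and 2 rose (Eif2ak2 and Eif2ak3, which are kinases of an initiation factor), with a median of -0.08. Both the falls and the rises of the Eif genes were smaller shares than those over all genes. Of 77 mitochondrial ribosomal protein genes 19 fell and none rose (median -0.18), and of 35 aminoacyl-tRNA synthetase genes 11 fell and none rose (median -0.23). In families outside protein synthesis, solute carriers had 29 rises and 47 falls among 197, the rises near and the falls above the shares over all genes. Zinc finger genes named Zfp had 21 rises and 24 falls among 318, below those shares in both directions.

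By gene length, the 3083 shortest genes (up to 1708 bases) had a median log2 fold change of -0.08 with 346 rises and 459 falls, and the 3083 longest (from 4236 bases) one of 0.03 with 587 rises and 379 falls. By chromosome, medians ran from -0.07 on chromosome 10 to 0.04 on chromosome 1. Of 15 mitochondrially encoded genes 1 was called, a fall, and mitochondrial counts were 2.12% and 2.15% of the total on day 4 and 1.799% and 1.77% on day 6.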
